A study of Mus musculus with 2 samples.

Results

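Cells detect foreign or misplaced nucleic acid in the cytosol with a small set of proteins, and the genes for 8 of them were followed here in microglia, the resident macrophages of the brain. The 8 genes were taken by symbol from the feature list of the deposited matrices, in which each matched 1 of 32589 features, and all 8 were detected in both libraries. They were Ddx58, Ifih1, Dhx58, Mavs, Cgas, Tmem173, Zbp1 and Eif2ak2. Vehicle and corticosterone were the compared treatments, given to C57BL/6 mice, corticosterone by oral gavage to model depression under an excess of this stress hormone. Cells with low CD45 and with CD11b, the surface pattern used for microglia, were sorted from the prefrontal cortex and profiled by single-cell RNA sequencing with a Singleron GEXSCOPE kit, as 1 library per treatment. The dose, the duration, the sex and the number of animals behind each library were not stated, and the labels name no allele or transgene.

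RIG-I-like receptors bind double-stranded RNA in the cytosol and pass the signal to MAVS, an adaptor on the outer membrane of mitochondria. In a parallel route, cGAS binds double-stranded DNA and makes the cyclic dinucleotide cGAMP, which activates STING on the endoplasmic reticulum, and both adaptors lead through the kinase TBK1 to transcription of type I interferon. Interferon in turn induces many of the sensors, so that their mRNAs are members of the interferon-stimulated genes as well as part of the machinery that starts the response. In the brain, microglia are a main site of cGAS and STING expression.

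Ddx58 encodes RIG-I, Ifih1 encodes MDA5 and Dhx58 encodes LGP2, a relative of both that lacks their signalling domains and tunes their output. Tmem173 encodes STING. Zbp1 encodes a sensor of left-handed double-stranded nucleic acid that can start cell death through RIPK3, and Eif2ak2 encodes PKR, a kinase that binds double-stranded RNA and stops translation by phosphorylating eIF2 alpha. In the GRCm38 assembly Ddx58 lies at chr4:40203773-40239828, Ifih1 at chr2:62595798-62646255, Dhx58 at chr11:100694884-100704271, Zbp1 at chr2:173206612-173218923, Cgas at chr9:78430526-78443237, Tmem173 at chr18:35733679-35740554 and Eif2ak2 at chr17:78852564-78882573, all on the minus strand. Mavs lies at chr2:131234063-131248025 on the plus strand. All 8 are annotated as protein-coding. Exons of Dhx58, Cgas and Eif2ak2 overlap transcripts of the opposite strand, and the strand setting of the counting was not given in the sources used here. The antisense transcript of Dhx58, Dhx58os, had 2 UMIs in vehicle and 5 in corticosterone microglia-like cells.

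After filtering, 10500 vehicle and 17883 corticosterone cells remained, with medians of 3220.5 and 3961 UMIs per cell, a UMI being the tag by which copies of 1 captured transcript are counted once. The share of mitochondrial UMIs differed as well, with medians of 2.67% and 4.20%. The libraries shared 104 cell barcodes. Clusters were named microglia-like where microglia markers were detected at 0.5 times the all-cell level or more. None had 3 such markers 2-fold above the other cells. The class held 7875 vehicle and 15216 corticosterone cells, with 32136836 and 71199741 UMIs. In vehicle 7311 of these cells lay in 1 cluster, and in corticosterone 9286 and 5073 lay in a pair of others, so the class was held by different clusters in the libraries. The other cells of the sort were border-associated macrophage-like, neutrophil-like, monocyte-like, erythroid cell-like, endothelial cell-like or in 3 clusters that stayed unnamed. With 1 library per treatment no test between treatments was possible, intervals are at the 95% level and cover counting error only, and treatment and library cannot be told apart.

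Promoter sequences of 5 of the 8 genes, matched by symbol, are given from RefSeq on GRCm38.p6 as windows of 300 bases. They are shown as a description of the genes, and their part in the sensor levels was not tested. Zbp1, Dhx58 and Tmem173, the genes of the 2 largest and the smallest ratios between the libraries, are not among them. The letters searched were the core of the interferon-stimulated response element, GAAA followed after any 2 bases by GAAA again. Capitals mark its matches on either strand, and each run is written 5′ to 3′ along the strand of the gene. The windows are Ddx58 chr4:40239776-40240075, Ifih1 chr2:62646206-62646505, Eif2ak2 chr17:78882523-78882822 and Cgas chr9:78443188-78443487 on the minus strand, and Mavs chr2:131233813-131234112 on the plus strand.
Ddx58: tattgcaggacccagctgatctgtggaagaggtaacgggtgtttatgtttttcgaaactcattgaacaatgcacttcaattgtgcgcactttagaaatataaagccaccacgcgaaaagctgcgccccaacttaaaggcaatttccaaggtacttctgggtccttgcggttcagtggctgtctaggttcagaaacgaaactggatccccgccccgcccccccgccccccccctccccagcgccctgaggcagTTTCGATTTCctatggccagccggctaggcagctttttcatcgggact
Ifih1: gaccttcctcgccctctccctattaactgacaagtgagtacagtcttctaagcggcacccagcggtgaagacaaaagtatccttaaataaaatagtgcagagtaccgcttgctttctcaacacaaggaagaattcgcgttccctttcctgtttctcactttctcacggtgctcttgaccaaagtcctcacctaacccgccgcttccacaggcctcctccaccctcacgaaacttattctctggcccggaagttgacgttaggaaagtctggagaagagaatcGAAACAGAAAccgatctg
Eif2ak2: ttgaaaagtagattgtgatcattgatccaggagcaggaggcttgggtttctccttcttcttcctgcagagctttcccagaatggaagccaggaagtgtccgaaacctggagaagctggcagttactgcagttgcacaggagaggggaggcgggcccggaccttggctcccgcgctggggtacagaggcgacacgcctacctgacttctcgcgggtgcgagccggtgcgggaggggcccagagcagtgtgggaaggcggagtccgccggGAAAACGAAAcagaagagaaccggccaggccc
Cgas: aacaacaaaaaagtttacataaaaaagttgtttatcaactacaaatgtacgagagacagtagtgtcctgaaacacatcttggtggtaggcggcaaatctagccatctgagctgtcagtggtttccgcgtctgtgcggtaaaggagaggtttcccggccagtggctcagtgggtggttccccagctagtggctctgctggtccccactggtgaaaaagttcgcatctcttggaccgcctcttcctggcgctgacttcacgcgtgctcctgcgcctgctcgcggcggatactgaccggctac
Mavs: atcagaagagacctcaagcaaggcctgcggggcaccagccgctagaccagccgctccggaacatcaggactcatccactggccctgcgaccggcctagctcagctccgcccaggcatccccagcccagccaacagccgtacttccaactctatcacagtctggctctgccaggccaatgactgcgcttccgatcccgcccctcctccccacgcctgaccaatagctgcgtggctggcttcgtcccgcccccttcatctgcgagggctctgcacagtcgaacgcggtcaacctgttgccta
The promoters of Ddx58, Ifih1 and Eif2ak2 each held 1 match, and those of Cgas and Mavs held none. In Ddx58 the match was TTTCGATTTC, the motif read on the opposite strand, starting at base 3 of the transcript. In Ifih1 it was GAAACAGAAA, starting at base 33, and in Eif2ak2 GAAAACGAAA, starting at base 19. Among all 27025 promoter windows of the same length, 3.49% held the motif. The gamma-activated sequence TTCNNNGAA was found only in the Eif2ak2 window among these 5, against 8.47% of all windows, and the glucocorticoid response element, AGAACA followed after any 3 bases by TGTTCT, in none of the 5, against 1 of the 27025 windows. A match of these letters is a description of the window and not a site shown to be bound. Dhx58, Zbp1 and Tmem173 are named only.

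In microglia-like cells all 8 sensor genes had a higher level in the corticosterone library than in the vehicle library. The largest ratios belonged to Zbp1 and to Dhx58, and the smallest to the adaptor gene Tmem173. Levels are UMIs of the gene per 1e6 UMIs summed over the class (CPM), and they are compared between libraries for a gene and not between genes. At 2-fold or more, 2 of the 8 genes were higher and 0 were lower, against 2.24% of 9678 genes higher and 2.07% lower at a mean CPM of at least 5. The median log2 ratio of corticosterone over vehicle was 0.74 over the 8 genes and -0.01 over all genes, of which 5% lay below -0.68 and 5% above 0.64.

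**Figure D1:**
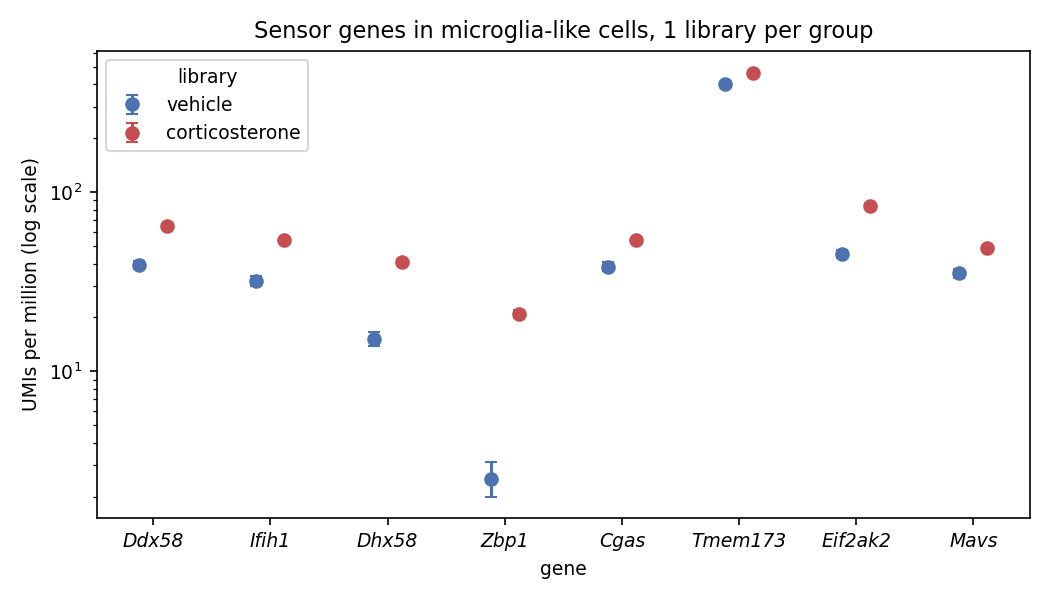
Level of each sensor gene in microglia-like cells, in CPM on a log axis, for the vehicle and the corticosterone library, with points for the 1 library of each treatment and bars for exact Poisson intervals at the 95% level. For all 8 genes the corticosterone point lies above the vehicle point, from 403 to 464 for Tmem173 up to 2.52 to 20.8 for Zbp1.

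Among the RNA sensors, Ddx58 was at 39.4 CPM (37.2 to 41.6) in vehicle and 64.6 (62.8 to 66.5) in corticosterone, from 1265 and 4601 UMIs, for a log2 ratio of 0.72 (0.63 to 0.81). Ifih1 was at 31.9 CPM (30.002 to 33.9) in vehicle and 54.0 (52.3 to 55.8) in corticosterone, for a log2 ratio of 0.76 (0.66 to 0.86). The genes of RIG-I and MDA5 thus stood at like ratios, and neither passed 2-fold. Dhx58 was at 15.2 CPM (13.9 to 16.7) in vehicle and 40.8 (39.3 to 42.3) in corticosterone, from 490 and 2906 UMIs, for a log2 ratio of 1.42 (1.28 to 1.56). The interval of Dhx58 lay above those of Ddx58 and Ifih1, so the gene of the modulator had a larger ratio than the genes of the signalling receptors. Mavs, the adaptor gene of RIG-I and MDA5, was at 35.2 CPM (33.2 to 37.3) in vehicle and 48.6 (47.0 to 50.3) in corticosterone, for a log2 ratio of 0.46 (0.37 to 0.56). Its ratio lay below those of all 3 receptor genes.

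In the DNA route, Cgas was at 38.5 CPM (36.3 to 40.7) in vehicle and 53.8 (52.1 to 55.5) in corticosterone, from 1236 and 3831 UMIs, for a log2 ratio of 0.48 (0.39 to 0.58). Tmem173 was at 403 CPM (396 to 410) in vehicle and 464 (459 to 469) in corticosterone, from 12944 and 33048 UMIs, for a log2 ratio of 0.20 (0.18 to 0.23). The counts of Tmem173 were the deepest of the set, which is why so small a ratio had a narrow interval. Among the 9678 genes, 24.4% had a higher ratio than Tmem173, and 8.19% had one higher than Cgas.

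Zbp1 had 81 UMIs in 7875 vehicle microglia-like cells, and 1483 UMIs in 15216 corticosterone cells. Its level was 2.52 CPM (2.00 to 3.13) in vehicle and 20.8 (19.8 to 21.9) in corticosterone, an 8.26-fold difference and a log2 ratio of 3.05 (2.72 to 3.39). Only 18 of the 9678 genes, 0.186%, had a higher ratio, and 99 genes, 1.02%, had one higher than Dhx58. Eif2ak2 was at 45.1 CPM (42.8 to 47.5) in vehicle and 84.2 (82.1 to 86.4) in corticosterone, from 1450 and 5998 UMIs, for a log2 ratio of 0.90 (0.82 to 0.98). For Eif2ak2 2.76% of genes had a higher ratio, for Ifih1 3.61%, for Ddx58 4.05% and for Mavs 8.79%. With DESeq2 size factors in place of the UMI total, Eif2ak2 was at 1.01 and became the third gene past 2-fold.

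These ratios rest on how clusters were named. At a finer clustering resolution of 1.0 the cluster with most of the vehicle cells stayed unnamed, the class kept 680 vehicle cells, and 0 of the 8 genes passed 2-fold, with Zbp1 at 0.62 and Dhx58 at 0.59. With that cluster counted in, an alternative added after the data had been seen, 2 genes passed. The share of all genes past 2-fold was not computed for either set of cells. Summed over all cells, whatever their class, Zbp1 had a log2 ratio of 2.19. Of 16 marker lists of other cells, 13 had a lower summed level in the corticosterone class and 3, of endothelial cells, oligodendrocytes and oligodendrocyte precursors, a higher one. The summed level of 10 border-associated macrophage markers was 94.3 CPM in vehicle and 49.3 in corticosterone, that of 13 neutrophil markers 947 and 699, and that of 8 monocyte markers 345 and 141, where 2 markers were 2-fold higher and 1 was 2-fold lower. Their part in the ratios was not tested.

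The share of microglia-like cells with a UMI of each sensor was also higher in corticosterone. Because the libraries differed in depth, each cell was thinned to 1000 UMIs, which left 7283 vehicle and 15127 corticosterone cells and set aside 592 and 89 shallower ones. In vehicle 32.1% (31.0 to 33.2) of cells had a UMI of Tmem173, and in corticosterone 36.4% (35.6 to 37.2). Zbp1 was seen in 0.261% (0.157 to 0.407) and 1.74% (1.54 to 1.96) of cells, and Dhx58 in 1.54% (1.27 to 1.85) and 3.85% (3.55 to 4.17). For the other 5 genes the shares were 3.56% and 6.01% for Ddx58, 3.41% and 4.96% for Ifih1, 4.59% and 7.34% for Eif2ak2, 4.11% and 5.19% for Cgas, and 3.25% and 4.69% for Mavs. The intervals treat the cells of 1 library per treatment as units, and how many of all genes differ as much was not computed. Without thinning the shares were larger, 12.7% and 21.7% for Ddx58, 0.838% and 5.96% for Zbp1 and 66.4% and 79.8% for Tmem173.

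The same shares were read in erythroid cell-like barcodes, at median depths of 2514.5 and 3763 UMIs beside 3183 and 4000.5 in microglia-like cells. Tmem173 was in 25.6% (18.4 to 33.8) of 133 such barcodes in vehicle, and in 30.8% (20.8 to 42.2) of 78 in corticosterone. Zbp1 was in 0 of 133 vehicle barcodes, which allows a share of up to 2.26%, and in 1.28% of the corticosterone ones. Ddx58 was in 3.76% and 3.85% of them, Eif2ak2 in 6.77% and 5.13% and Ifih1 in 1.504% and 5.13%, with wide intervals. These barcodes carried 4 microglia markers (Sall1, P2ry12, Tmem119 and Siglech) at a median of 0.797 times the microglia-like level in vehicle and 0.838 times in corticosterone. They therefore held microglial RNA and give no separate measure of free RNA, which was not tested.

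Counted over the 8 genes together, a UMI of at least 1 sensor was in 45.1% (43.9 to 46.2) of the thinned cells in vehicle and in 54.3% (53.5 to 55.1) in corticosterone. Cells with 2 sensors made up 6.44% and 11.0%, and cells with 3 or more made up 0.645%, which was 47 cells, and 2.22%, which was 336 cells. Most cells with any sensor carried 1, at 38.0% of vehicle and 41.1% of corticosterone cells. Tmem173 had the widest detection of the 8.

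When microglia-like cells were clustered again without the 8 genes and with each gene scaled within its library, 1 subcluster was led by interferon-stimulated genes, which made up 7 of its 10 leading genes, among them Ifit3, Rsad2 and Oasl1. It held 197 vehicle and 1011 corticosterone cells and is called interferon-high here. The sensors took no part in its definition, and the values below describe where sensor UMIs lay. Zbp1 was at 36.0 CPM in the vehicle interferon-high cells and 1.63 in the other vehicle microglia-like cells, for a log2 ratio of 4.46 (3.76 to 5.14). In corticosterone it was at 157 and 9.98 CPM, for a log2 ratio of 3.98 (3.83 to 4.13). These 2 intervals overlap. The interferon-high cells held 37.0% of all Zbp1 UMIs of vehicle microglia-like cells and 55.6% of those of corticosterone, beside 2.60% and 7.36% of all UMIs.

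The RNA sensors and PKR were also higher in interferon-high cells, by smaller amounts. Ddx58 had a log2 ratio of interferon-high over other cells of 1.54 (1.22 to 1.85) in vehicle and 1.71 (1.60 to 1.81) in corticosterone. Ifih1 had 1.46 (1.09 to 1.81) and 1.95 (1.84 to 2.06), Dhx58 had 1.70 (1.19 to 2.17) and 1.68 (1.55 to 1.82), and Eif2ak2 had 0.99 (0.63 to 1.33) and 1.52 (1.43 to 1.62). The intervals of Ifih1 and Eif2ak2 lay higher in corticosterone than in vehicle. Cgas had 0.86 (0.45 to 1.24) and 0.75 (0.60 to 0.89).

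The adaptor genes had smaller ratios. Tmem173 had a log2 ratio of interferon-high over other cells of -0.03 (-0.19 to 0.13) in vehicle and 0.11 (0.05 to 0.17) in corticosterone, at levels of 395 against 403 CPM and of 497 against 462 CPM. Mavs had 0.60 (0.13 to 1.04) in vehicle, from 44 UMIs, and 0.06 (-0.13 to 0.24) in corticosterone. The vehicle ratio of Mavs left out 0, and its interval overlapped those of Cgas and Eif2ak2. In vehicle the interferon-high cells held 2.55% of Tmem173 and 3.89% of Mavs UMIs, beside 2.60% of all UMIs. In corticosterone they held 7.88% of Tmem173 UMIs and 7.63% of Mavs UMIs, close to their 7.36% of all UMIs, and 20.6% of Ddx58, 23.5% of Ifih1, 20.3% of Dhx58, 18.6% of Eif2ak2 and 11.8% of Cgas UMIs.

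**Figure D2:**
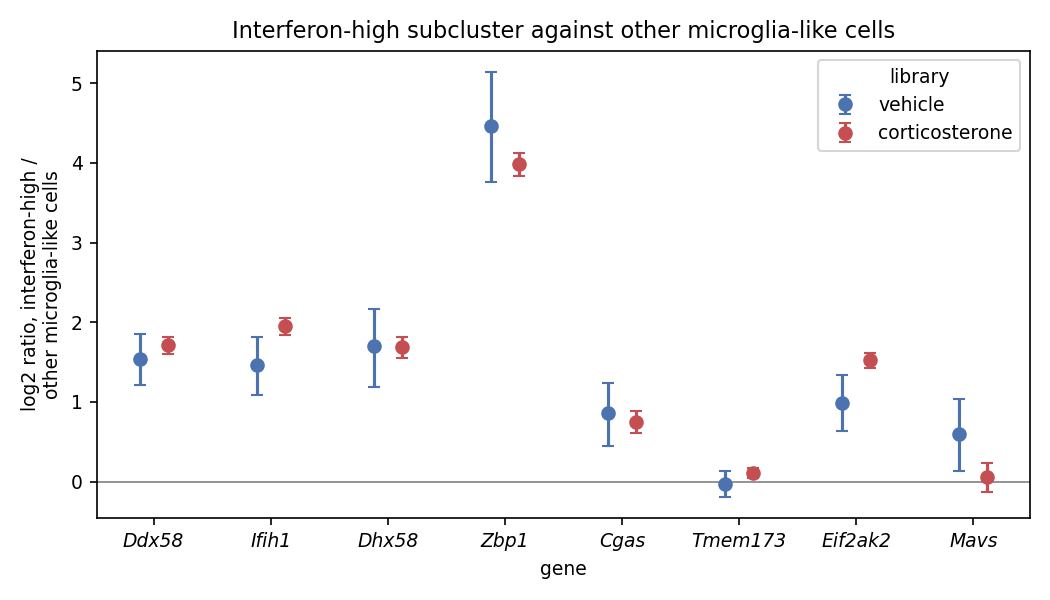
Log2 ratio of the level in the interferon-high subcluster over that in the other microglia-like cells, for each sensor gene and library, with bars for exact intervals at the 95% level. Zbp1 stands at 4.46 and 3.98, the RNA sensor genes between 1.46 and 1.95, and Tmem173 at -0.03 and 0.11.

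The libraries also differed outside the interferon-high subcluster. Because genes were scaled within each library, that subcluster is relative to its library, and a shift across a whole library stays in the other cells. It held 2.50% of vehicle and 6.64% of corticosterone microglia-like cells. After thinning, 7.58% and 32.6% had 3 or more UMIs of interferon-stimulated genes, so the other cells are not cells without them. In the other microglia-like cells the log2 ratio of corticosterone over vehicle was 2.61 (2.20 to 3.05) for Zbp1, 1.28 (1.14 to 1.43) for Dhx58, 0.75 (0.66 to 0.84) for Eif2ak2, 0.56 (0.47 to 0.66) for Ddx58 and 0.55 (0.44 to 0.65) for Ifih1. Cgas stood at 0.44, Mavs at 0.48 and Tmem173 at 0.20 there, beside 0.48, 0.46 and 0.20 in the whole class. The median of the 8 was 0.55 in place of 0.74, beside -0.01 over all genes in the same cells. Zbp1 and Dhx58 still passed 2-fold, and the share of all genes that did so there was not computed. Of the other subclusters, the one with 4327 vehicle and 8283 corticosterone cells and the one with 3082 and 5731 gave Zbp1 2.64 and 2.66 and Dhx58 1.31 and 1.18. Another, with 252 vehicle and 188 corticosterone cells, was led by neutrophil genes such as Camp and Ngp. With it left out of the class, an alternative added after the data had been seen, Zbp1 stood at 3.05 and Dhx58 at 1.41. The median of the 8 was then 0.74. Inside the interferon-high cells the ratio was 2.13 (1.61 to 2.71) for Zbp1, 1.28 (0.94 to 1.64) for Eif2ak2, 1.27 (0.80 to 1.78) for Dhx58, 1.04 (0.69 to 1.41) for Ifih1 and 0.73 (0.42 to 1.06) for Ddx58. Tmem173 stood there at 0.33 (0.16 to 0.50). The intervals of Cgas, 0.33 (-0.07 to 0.76), and of Mavs, -0.07 (-0.53 to 0.43), held 0. The first clustering, with both libraries scaled together, also gave a microglia-like cluster led by Ifit2 and Ifit3, with 42 vehicle and 637 corticosterone cells. There Zbp1 had 0.73 (0.08 to 1.47), Ddx58 0.71, Eif2ak2 0.70 and Tmem173 0.42. Dhx58 had 0.44 (-0.30 to 1.29), Ifih1 0.10 (-0.42 to 0.68), Cgas -0.01 and Mavs -1.03 (-1.82 to -0.13). The ratios among such cells thus depended on how they were grouped.

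Sensor shares were also read without clusters, by splitting thinned microglia-like cells by their UMIs of interferon-stimulated genes, with the sensors left out of that list. The split cuts a per-cell count and gives ranges, not cell types. In vehicle 3422 cells had 0 such UMIs, 3309 had 1 or 2 and 552 had 3 or more, and in corticosterone the numbers were 3006, 7197 and 4924. Zbp1 was seen in 0.0877%, 0.121% and 2.17% of these vehicle cells and in 0.399%, 0.820% and 3.90% of the corticosterone cells. Ddx58 was seen in 3.42%, 3.38% and 5.43% of vehicle and in 4.89%, 5.00% and 8.16% of corticosterone cells. Dhx58 was seen in 1.34%, 1.63% and 2.17% of vehicle and in 2.66%, 3.31% and 5.36% of corticosterone cells. In each of the 3 ranges the share of these 3 genes was higher in corticosterone. The same held for Ifih1, Eif2ak2, Tmem173 and Mavs, and for Cgas in all but the highest range. The vehicle shares of Zbp1 rest on 3, 4 and 12 cells. The intervals of the libraries overlapped in every range for Ifih1 and Cgas. They overlapped in the lowest and the highest range for Zbp1, Eif2ak2, Tmem173 and Mavs, in the highest for Ddx58, and in none for Dhx58.

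Ifih1 and Eif2ak2 likewise had their highest shares in cells with 3 or more such UMIs, 7.39% and 9.75% in corticosterone and 5.43% and 7.07% in vehicle. Tmem173 was flat, at 33.0%, 31.3% and 31.9% of vehicle cells and 36.1%, 37.0% and 35.8% of corticosterone cells. Mavs was seen in 3.36%, 3.14% and 3.26% of vehicle and 3.69%, 4.74% and 5.22% of corticosterone cells, and Cgas in 4.15%, 3.66% and 6.52% and in 5.26%, 4.81% and 5.71%. Cgas in corticosterone thus moved little across the ranges.

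**Figure D3:**
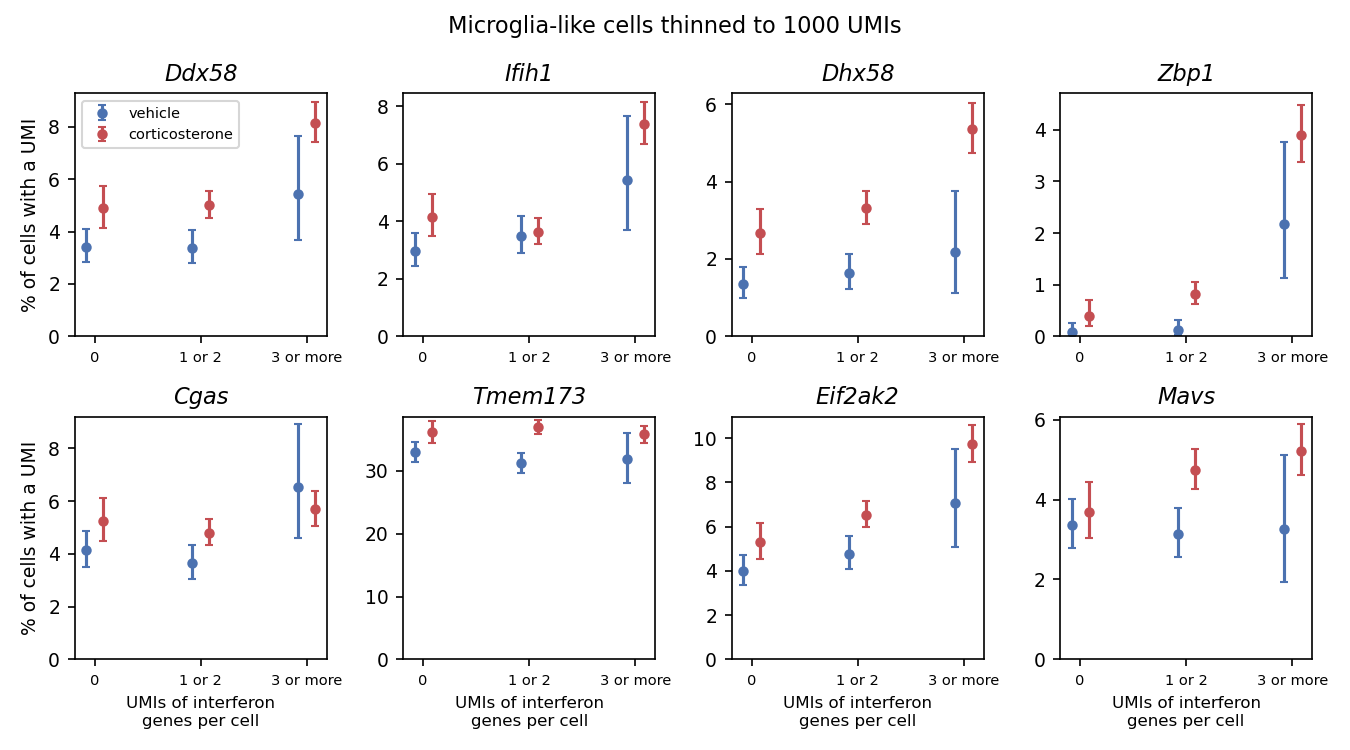
Percentage of microglia-like cells, thinned to 1000 UMIs, with a UMI of each sensor gene, by the number of UMIs of interferon-stimulated genes in the cell (0, 1 or 2, 3 or more), for vehicle and corticosterone, with bars for exact binomial intervals at the 95% level. Zbp1 reaches 2.17% of vehicle and 3.90% of corticosterone cells in the highest range, and Tmem173 stays between 31.3% and 37.0% throughout.

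In the other large classes the RNA sensor genes, Zbp1 and Eif2ak2 were also higher in corticosterone, while Tmem173 had ratios below 0. Cgas had log2 ratios from 0.05 to 0.42 there, beside 0.48 in microglia-like cells. Mavs had 0.09 to 0.29, beside 0.46. The class of border-associated macrophages, led by markers of the macrophages of the meninges and vessels, held 1066 vehicle and 793 corticosterone cells. There 1 of 8 genes passed 2-fold higher, against 2.91% of 9750 genes, and 0 passed 2-fold lower, against 1.86%. That gene was Zbp1, at 8.32 CPM (6.70 to 10.2) in vehicle and 31.3 (27.2 to 35.8) in corticosterone, for a log2 ratio of 1.91 (1.55 to 2.28). Dhx58 stood just under the threshold, at 18.8 and 37.1 CPM with a log2 ratio of 0.98 (0.71 to 1.25). Eif2ak2 had 0.82 (0.64 to 0.997), Ddx58 0.73 (0.53 to 0.93) and Ifih1 0.57 (0.36 to 0.79). The ratio of Cgas was 0.26 (0.04 to 0.49), while the intervals of Mavs, 0.09 (-0.14 to 0.32), and Tmem173, -0.07 (-0.15 to 0.00), reached 0. The 4 microglia markers stood in these cells at 0.821 times the microglia-like level in vehicle and 0.646 times in corticosterone. The 10 markers of the class itself summed to 3564 CPM in vehicle and 7479 in corticosterone, with 7 of them 2-fold higher. At a resolution of 1.0 most of the class lay in different clusters by library, 974 vehicle and 19 corticosterone cells in 1 and 96 and 749 in another. The part of these differences in the ratios was not tested.

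In neutrophil-like cells, 435 in vehicle and 398 in corticosterone, 3 of 8 genes passed 2-fold higher, against 2.47% of 9590 genes, and 0 passed 2-fold lower, against 7.58%. Zbp1 was at 26.9 CPM (20.6 to 34.7) in vehicle and 90.8 (79.1 to 104) in corticosterone, for a log2 ratio of 1.75 (1.33 to 2.19). Ddx58 was at 51.6 and 109 CPM, 1.07 (0.75 to 1.40), and Dhx58 at 22.4 and 48.0 CPM, 1.10 (0.60 to 1.61). Ifih1 had 0.96 (0.59 to 1.34) and Eif2ak2 0.71 (0.34 to 1.10), while Cgas, 0.05 (-0.46 to 0.57), and Mavs, 0.23 (-0.42 to 0.88), had intervals that held 0. The 8 monocyte markers summed to 3149 CPM in vehicle and 7372 in corticosterone in these cells, with 7 of them 2-fold higher, and their part in the sensor ratios was not tested. After thinning, the share of neutrophil-like cells with Zbp1 was 1.75% (0.646 to 3.78) in vehicle and 10.5% (7.63 to 14.0) in corticosterone, and that with Tmem173 was 22.5% (18.2 to 27.3) and 9.72% (6.97 to 13.1).

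Tmem173 was lower in corticosterone neutrophil-like cells, at 255 CPM (235 to 277) in vehicle and 152 (137 to 169) in corticosterone, for a log2 ratio of -0.74 (-0.94 to -0.55). Over the same cells the 4 microglia markers stood at 0.545 times the microglia-like level in vehicle and 0.356 times in corticosterone, and their part in the Tmem173 ratio was not tested. The class joined 2 clusters in unlike proportions, 200 vehicle and 273 corticosterone cells in 1, led by Clec4d and Cxcr2, and 235 and 125 in the other, led by Camp and Ngp. The former had 4 of 8 sensor genes past 2-fold higher, against 5.2% of 9633 genes, and 0 lower, against 7.7%. The latter had 1 higher, against 3.06% of 8947 genes, and 2 lower, against 17.8%, which were Tmem173 and Mavs, the second at -1.03 (-2.29 to 0.15) from 19 and 10 UMIs. Tmem173 was lower in each, with log2 ratios of -0.65 (-0.87 to -0.43) and -1.02 (-1.44 to -0.62). Zbp1 was higher in each, with 1.95 (1.40 to 2.52) and 1.45 (0.77 to 2.16).

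The largest unnamed cluster, 659 vehicle and 1171 corticosterone cells with low medians of 1077 and 1256 UMIs, had 3 of 8 genes past 2-fold higher, against 4.43% of 9998 genes, and 0 past 2-fold lower, against 3.62%. These were Zbp1, from 2 UMIs in vehicle and 32 in corticosterone, for a log2 ratio of 3.00 (1.03 to 6.11), Eif2ak2 with 1.14 (0.77 to 1.52) and Ifih1 with 1.11 (0.69 to 1.56). Dhx58 had 0.73 (0.11 to 1.40) and Ddx58 0.65 (0.21 to 1.11). The intervals of Cgas, 0.42 (-0.06 to 0.92), and of Mavs, 0.29 (-0.35 to 0.97), held 0. Tmem173 was lower, at 329 CPM (298 to 362) and 251 (232 to 272), for a log2 ratio of -0.39 (-0.57 to -0.21).

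**Figure D4:**
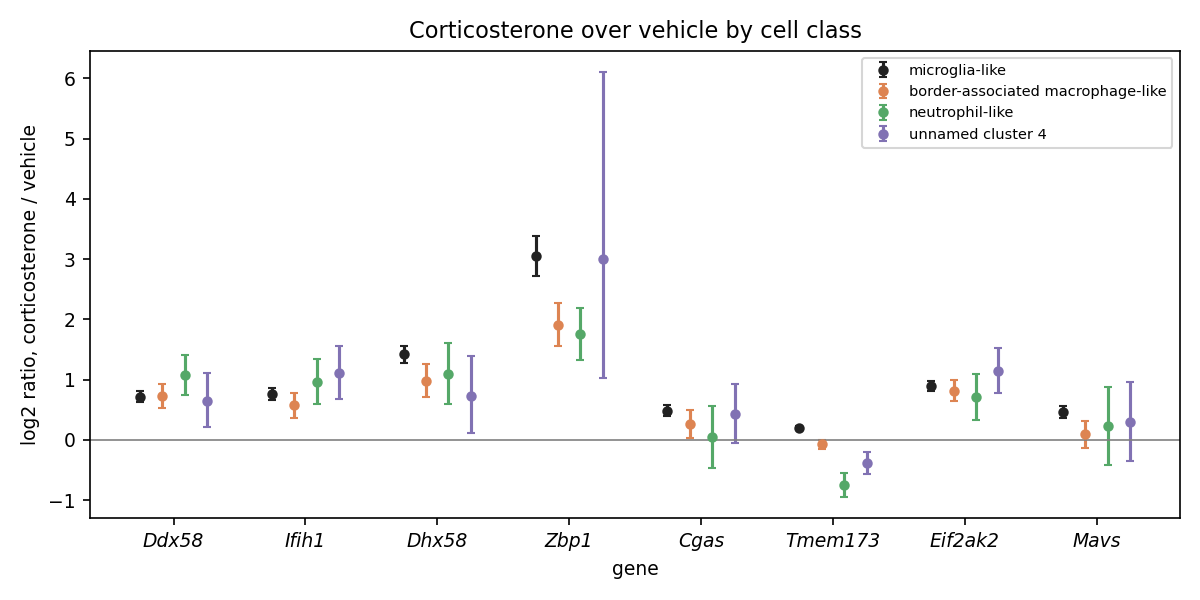
Log2 ratio of corticosterone over vehicle for each sensor gene in microglia-like, border-associated macrophage-like and neutrophil-like cells and in the largest unnamed cluster, numbered 4, with bars for exact intervals at the 95% level. Zbp1 lies between 1.75 and 3.05 in all of them, and Tmem173 between -0.74 and 0.20.

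Across all classes and both libraries, Zbp1 was highest in monocyte-like cells. In the 29 vehicle cells of that class it was at 140 CPM (86.9 to 215), from 21 UMIs, and in the 60 corticosterone cells at 363 CPM (313 to 419), from 186 UMIs. Next came corticosterone neutrophil-like cells at 90.8, whose interval overlaps that of vehicle monocyte-like cells, then an unnamed cluster led by MHC class II genes at 53.0 (38.4 to 71.4) in corticosterone, and border-associated macrophage-like cells at 31.3. Zbp1 had 0 UMIs in vehicle erythroid cell-like, endothelial cell-like and the smallest unnamed cells, the last of them led by Spp1 and Lpl, with upper limits of 7.52, 11.5 and 18.5 CPM. Tmem173 had a different order. It was highest in corticosterone microglia-like cells at 464, next to vehicle endothelial cell-like cells at 404 (337 to 479), which carried the 4 microglia markers at 0.875 times the microglia-like level, and vehicle microglia-like cells at 403, and lowest in corticosterone neutrophil-like cells at 152.

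Each of the other sensors was also highest in a class of the corticosterone library. Ddx58 was highest in corticosterone neutrophil-like cells at 109 CPM (95.8 to 123) and monocyte-like cells at 91.8 (67.4 to 122), whose intervals overlap. Ifih1 was highest in corticosterone monocyte-like cells at 105 (79.2 to 138), and Dhx58 in the same cells at 99.6 (74.1 to 131), each overlapping with the next class. Eif2ak2 was highest in the largest unnamed cluster in corticosterone at 131 (118 to 146), above the 84.2 of corticosterone microglia-like cells, with intervals that do not overlap. Cgas and Mavs had no class that stood apart from the next, and both were at their lowest or near it in neutrophil-like cells, at 28.3 (21.7 to 36.2) and 17.1 (12.1 to 23.4) CPM in vehicle. The few cells of the monocyte-like class leave it without a library comparison beyond these values.

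**Figure D5:**
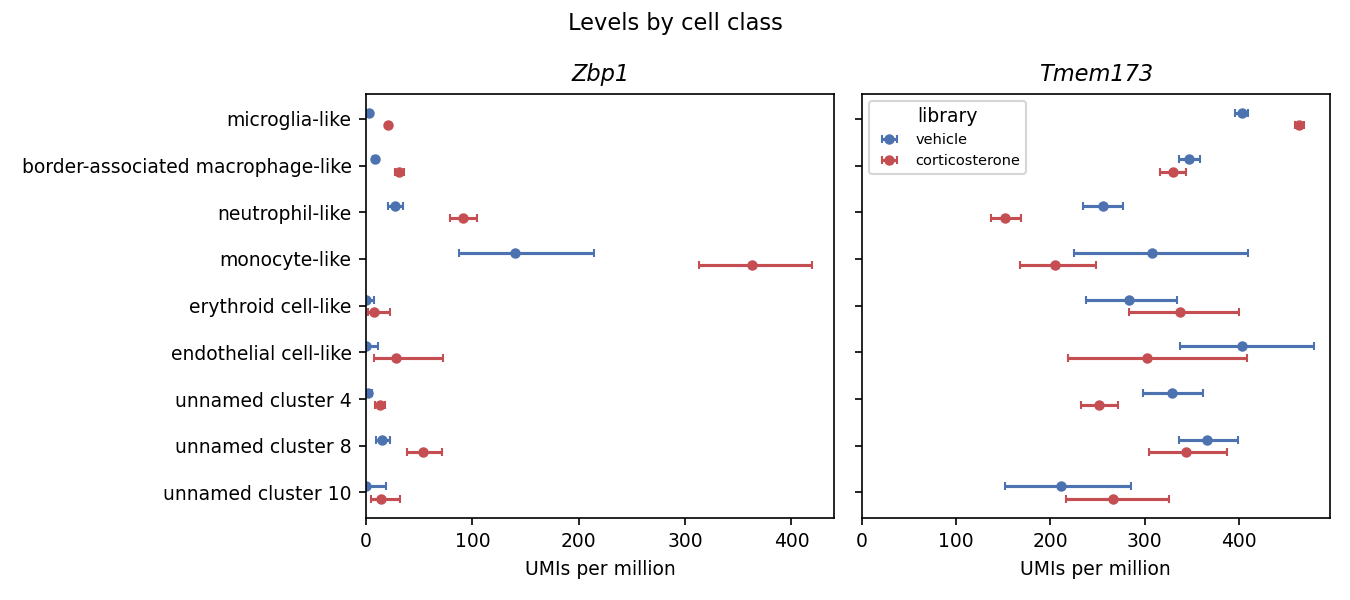
Level of Zbp1 and of Tmem173 in CPM in each cell class and unnamed cluster of the vehicle and the corticosterone library, with bars for exact Poisson intervals at the 95% level. Zbp1 is highest in corticosterone monocyte-like cells at 363, and Tmem173 in corticosterone microglia-like cells at 464.

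Over the 8 points given by 4 classes in 2 libraries, Zbp1 was most alike in pattern to Rtp4, with a Pearson r of 0.99 on log2(CPM + 1), then to Irf7 and Igsf6, both at 0.98. Ddx58 was most like Irf9 (0.98), a part of the interferon-activated transcription complex, and Dhx58 was most like Trim25 (0.96), a ubiquitin ligase of the RIG-I route. Ifih1 was most like Parp10 (0.98) and Eif2ak2 most like Rnf213 (0.98). The nearest genes of the others were Slc12a9 for Cgas (0.99), Polr1c for Mavs (0.99) and Srsf3 for Tmem173 (0.98). These values describe few points that share 2 libraries and 6602 candidate genes.

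Around the sensors, most partner genes of the pathways differed little between the libraries in microglia-like cells. Taking the 6602 genes whose mean level reached 20 CPM, the median log2 ratio was 0.00, with 1.79% higher by 2-fold or more and 1.29% lower. Of 26 listed genes of RIG-I-like receptor and MAVS signalling, 20 reached that level, with a median of 0.11, 1 past 2-fold higher and 0 lower. That gene was Irf7, the transcription factor that amplifies interferon output, at 6.60 CPM in vehicle and 45.7 in corticosterone, for a log2 ratio of 2.79 (2.59 to 3.00). The lowest was the helicase gene Ddx3x at -0.47 (-0.50 to -0.44).

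Of 25 genes of cytosolic DNA handling and STING signalling, 13 reached that level, with a median of 0.11 and 0 past 2-fold in either direction. Their range ran from Surf4, which carries proteins out of the endoplasmic reticulum, at 0.58 (0.53 to 0.63) to the helicase gene Ddx41 at -0.08 (-0.21 to 0.05). Of 9 genes of the ZBP1 and RIPK route and of double-stranded RNA editing, 5 reached it, with a median of 0.06 and 0 past 2-fold. Adar, whose enzyme edits double-stranded RNA and so keeps it from MDA5 and ZBP1, was highest at 39.7 CPM in vehicle and 74.0 in corticosterone, 0.90 (0.81 to 0.99), and Casp6 lowest at -0.32 (-0.44 to -0.21).

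Downstream of PKR, 14 of 18 genes of the eIF2 alpha stress response reached that level, with a median of 0.15 and 0 past 2-fold. Dnajc3, an inhibitor of the PKR family, was highest at 0.68 (0.64 to 0.73), and Ddit3, which encodes the stress factor CHOP, was lowest at 76.0 CPM in vehicle and 46.9 in corticosterone, -0.70 (-0.77 to -0.62). Of 12 genes of endosomal sensing, the route outside the cytosol, 11 reached it, with a median of 0.22 and 0 past 2-fold, from the chaperone gene Hsp90b1 at 0.85 (0.84 to 0.87) to Tlr9, a DNA receptor, at -0.91 (-1.04 to -0.77).

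The interferon lists had higher medians. Of 23 genes of interferon ligands and the receptor chain, 13 reached a mean CPM of 20 and 8 had no UMI in either library. Their median was 0.44, with 4 past 2-fold higher, among them Usp18 at 2.62 (2.43 to 2.81), Isg15 at 1.97 (1.86 to 2.09) and Stat2 at 1.30 (1.20 to 1.41). The lowest was Ifngr1 at -0.04 (-0.06 to -0.01). Of 28 interferon-stimulated genes other than the sensors, 19 reached that level, with a median of 1.44, 15 past 2-fold higher and 0 lower, from Irf7 down to Herc6 at 0.51 (0.40 to 0.62). Irf7, Stat2, Usp18 and Isg15 are among those that also stand in the lists above. The median of the 8 sensors, 0.74, lay between those of their signalling partners and that of the interferon-stimulated genes. Unlike the list medians, it includes a gene below that level, Zbp1 at a mean of 11.7 CPM.

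Below a mean of 20 CPM, and named after their values were seen, 3 genes of the lists other than the interferon-stimulated one were past 2-fold higher and 3 past 2-fold lower. The higher ones were Ifnb1, a ligand gene at the end of the sensor routes, with 25 UMIs in vehicle and 273 in corticosterone, 2.30 (1.71 to 2.95), Mlkl, the effector of necroptosis, with 17 and 166 UMIs, 2.14 (1.42 to 2.95), and Enpp1, whose enzyme breaks down cGAMP, at 6.85 and 14.2 CPM, 1.05 (0.84 to 1.27). The lower ones were Ifna2, another ligand gene, with 11 UMIs in vehicle and 1 in corticosterone, -4.61 (-10.03 to -1.82), Chac1 of the eIF2 alpha response with 152 and 39 UMIs, -3.11 (-3.66 to -2.59), and Ikbke with 29 and 15 UMIs, -2.10 (-3.10 to -1.15). Of the interferon-stimulated list, 8 genes below that level were past 2-fold higher and 0 lower.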

How the data were processed

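The authors deposited raw UMI counts as 1 matrix of genes by barcodes per library, and per the submitters' processing notes used bcl2fastq 2.19 and the GRCm38 build. The aligner, the counter and the annotation were not given in the sources used here. Groups came from sample titles. Cells with at least 500 UMIs, 300 genes and at most 20% mitochondrial UMIs were kept, removing 55 of 10555 vehicle and 230 of 18113 corticosterone barcodes. Scrublet marked 0 and 2 cells, was taken not to have worked, and removed none. Clusters (scanpy 1.11.5, 2000 variable genes without the 8 members, 30 components, 15 neighbours, Leiden resolution 0.5) were named by their markers. The rule was 3 or more markers of a class, each in at least 10% of cells and 2-fold above the other cells. Microglia-like clusters, with 0 or 1 such marker, were named where 3 or more microglia markers were in at least 10% of cells. The geometric mean level of the microglia markers had also to be at least 0.5 times that over all cells. UMIs were summed per class and library and compared as CPM. Log2 ratios carry exact conditional intervals, levels exact Poisson and shares exact binomial (Clopper-Pearson) intervals. For a share with a count of 0 the limit given is 3 cells, and for a level with 0 UMIs it is the upper end of the exact Poisson interval. Interval code was tested on simulated data. edgeR 4.0.16 and DESeq2 1.42.0 gave alternative size factors only. Gene positions came from GENCODE vM21. Members, lists, thresholds and alternatives were chosen with earlier results of these data known. All members were named, and of each pathway list the highest, the lowest and those past 2-fold at a mean CPM of at least 20; for each member the 3 genes of highest Pearson r were found. Mx1 and Mx2 were not used here. Of the list genes past 2-fold, 1 is not reported here. Alternatives (thinning to 500 or 2000 UMIs or none, resolutions 0.3 and 1.0, filters, doublet scores, cell choices) are in the closing section.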

Additional observations from a re-analysis of the deposited data

Results flagged for a closer look

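Tmem173, the gene of STING, had a log2 ratio of corticosterone over vehicle above 0 in microglia-like cells, 0.20, and below 0 in neutrophil-like cells, -0.74, and in the largest unnamed cluster, -0.39. It was singled out because the directions were opposite and the counting intervals of all 3 ratios left out 0. The difference between the classes was not tested, since each class had 1 library per treatment. Sall1, P2ry12, Tmem119 and Siglech, which mark microglia, stood in neutrophil-like cells at a median of 0.545 times the microglia-like level in vehicle and 0.356 times in corticosterone, and in the largest unnamed cluster at 0.749 and 0.724 times.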

How the results depend on the processing

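The count of members higher by 2-fold or more in microglia-like cells, 2, was 3 with DESeq2 size factors, 1 with a mean CPM of at least 20, where Zbp1 at a mean of 11.7 CPM left the genes tested, and 0 at a Leiden resolution of 1.0. The median log2 ratio of the members, 0.74, was 0.43 at that resolution, where the vehicle class kept 680 cells because its largest cluster stayed unnamed. With that cluster added, the count was 2 and the median 0.74. The median lay between 0.55, without the interferon-high subcluster, and 0.85, with DESeq2 size factors, under the other alternatives, and no ratio of a member changed sign in any of them. Size factors moved the median of all genes from -0.01 to 0.08 with edgeR TMM and to 0.10 with DESeq2, and relative to that shift the order of the members is unaltered by construction. With a stricter cell filter the median was 0.74, without the cells of highest doublet score 0.72 and at resolution 0.3 0.74, each with a count of 2. The ratio of shares of cells with a UMI, corticosterone over vehicle, was above 1 for every member with thinning to 500 UMIs, to 2000 UMIs and with none. It moved beyond its counting interval without thinning for Ifih1, from 1.46 to 1.78, and Cgas, from 1.26 to 1.60, and for Tmem173, from 1.13 to 1.21 at 500 UMIs and 1.20 without thinning. Without a minimum CPM, 5.00% of 17974 genes were 2-fold higher, and at a mean CPM of at least 20, 1.79% of 6602. For the other alternatives the share of all genes past 2-fold was not computed. No paired analysis was possible because each group has 1 library and the groups share fewer than 2 replicate numbers. Depth limits Zbp1 in vehicle, with 81 UMIs, and every member in the monocyte-like, endothelial cell-like and erythroid cell-like classes.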
